A study of Mus musculus with 4 samples.

Results

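The region described here is chr18:37000001-38100000 of mouse build mm8, which holds the 3 clusters of protocadherin genes in the order Pcdha, Pcdhb and Pcdhg. All 220 bins of 5 kb in the region were taken, of 494868 bins of 5 kb that held a read in any library, and the 1100 bins of 1 kb were used for detail. The bins were taken by position, and no measured value entered that rule. Earlier results of these data were known when the region was chosen. The study sequenced DNA from chromatin immunoprecipitation (ChIP-seq) in 4 libraries, and each of its 4 groups has a single library. The MEF H3K4me3, MEF H3K27me3 and MEF H3K9me3 libraries came from mouse embryonic fibroblasts (MEF) grown in DMEM with 10% serum, with no treatment, age or strain given in the labels. The secondary MEF H3K9me3 library came from fibroblasts of chimeric embryos harvested at 13.5 dpc, after iPS cells carrying doxycycline-inducible Oct4, Klf4 and Sox2 and an Oct4-selectable cassette had been injected into BDF2 blastocysts. These fibroblasts were kept in 2 µg/ml puromycin for 48 hours to select the descendants of the injected cells, so the library stands for the selected part of a chimera, and the labels do not say how many embryos were pooled or whether doxycycline was given. The same lot of H3K9me3 antibody served both H3K9me3 libraries, but the 3 MEF libraries ran on 1 flow cell and the secondary MEF library on another, so cell source and flow cell cannot be told apart.

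Protocadherins of these clusters are cell adhesion proteins of the cadherin superfamily, best known from neurons, where each cell uses a few of many alternative promoters and so acquires a surface identity. In Pcdha and Pcdhg each variable exon has its own promoter and is spliced to constant exons shared by the cluster, which lie at its far end, whereas each Pcdhb gene is a separate gene of a single exon. H3K4me3 is a mark of active or poised promoters, H3K27me3 is laid down by Polycomb complexes at silent developmental genes, and H3K9me3 marks heterochromatin and silenced repeats and is also known at some clustered gene families. In the RefSeq gene order of assembly GRCm38.p6, the region runs through 14 Pcdha genes (Pcdha1 to Pcdha12, Pcdhac1 and Pcdhac2), 22 Pcdhb genes, the unrelated genes Slc25a2 and Taf7, and 22 Pcdhg genes ending in Pcdhgc3, Pcdhgc4 and Pcdhgc5. The neighbours in that order are Zmat2, Hars2 and Hars before Pcdha1, and Diaph1 and Hdac3 after Pcdhgc5. No annotation of build mm8 was used here, so no peak was assigned to a gene, and the fibroblast label was not checked against marker genes.

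Values are given as fold over the library mean, that is, reads of a bin over the mean reads of all bins that hold a read in any library. The libraries held 12244567 reads (MEF H3K4me3), 9782554 (MEF H3K27me3), 8912337 (MEF H3K9me3) and 7985901 (secondary MEF H3K9me3) with 1 location in the genome. A 5 kb bin held 16.1 to 24.7 reads on average, and a 1 kb bin 3.23 to 4.95. A bin was called where it reached 2-fold over the library mean and its one-sided Poisson value, adjusted by Benjamini-Hochberg over all bins, was under 0.001. That call compares a bin with its own library. There were no replicates, and intervals cover counting error only.

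Over the whole region the marks stood at different levels. MEF H3K4me3 averaged 1.41-fold (95% Poisson interval 1.38 to 1.44, 7666 reads) and secondary MEF H3K9me3 1.32-fold (1.28 to 1.35, 4673 reads). MEF H3K9me3 averaged 0.998-fold (0.967 to 1.03, 3954 reads), and MEF H3K27me3 only 0.616-fold (0.593 to 0.640, 2679 reads). Both 1 Mb sides were higher in every library. On the left side, H3K4me3 averaged 2.65-fold, H3K27me3 2.17-fold, MEF H3K9me3 1.5-fold and secondary MEF H3K9me3 1.4-fold. On the right side the values were 1.86-fold, 2.78-fold, 2.03-fold and 1.64-fold in the same order. The region thus had the least H3K27me3 relative to its sides, and the secondary MEF H3K9me3 level was the nearest to them. Beside 2105 windows of 1.1 Mb on the autosomes, the region exceeded 76.3% of them in H3K4me3, 34.8% in H3K27me3, 50.3% in MEF H3K9me3 and 71.1% in secondary MEF H3K9me3.

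The calls also showed little H3K27me3 in the region. H3K4me3 was called in 34 of the 220 bins (15.5%, against 6.27% of all bins) and secondary MEF H3K9me3 in 39 (17.7%, against 9.32%). MEF H3K9me3 was called in 27 bins (12.3%, against 10.3%), a share near its background over the region as a whole. H3K27me3 was called in 7 bins, 3.18% against 11.3% of all bins. On the sides H3K27me3 was called in 72 of 200 bins (left) and 127 of 200 (right). No library called 171 of the 220 bins, and all 4 called 3 bins, those from 37270001, 37945001 and 38080001 (1.36%, against 1.37% of all bins).

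**Figure D1:**
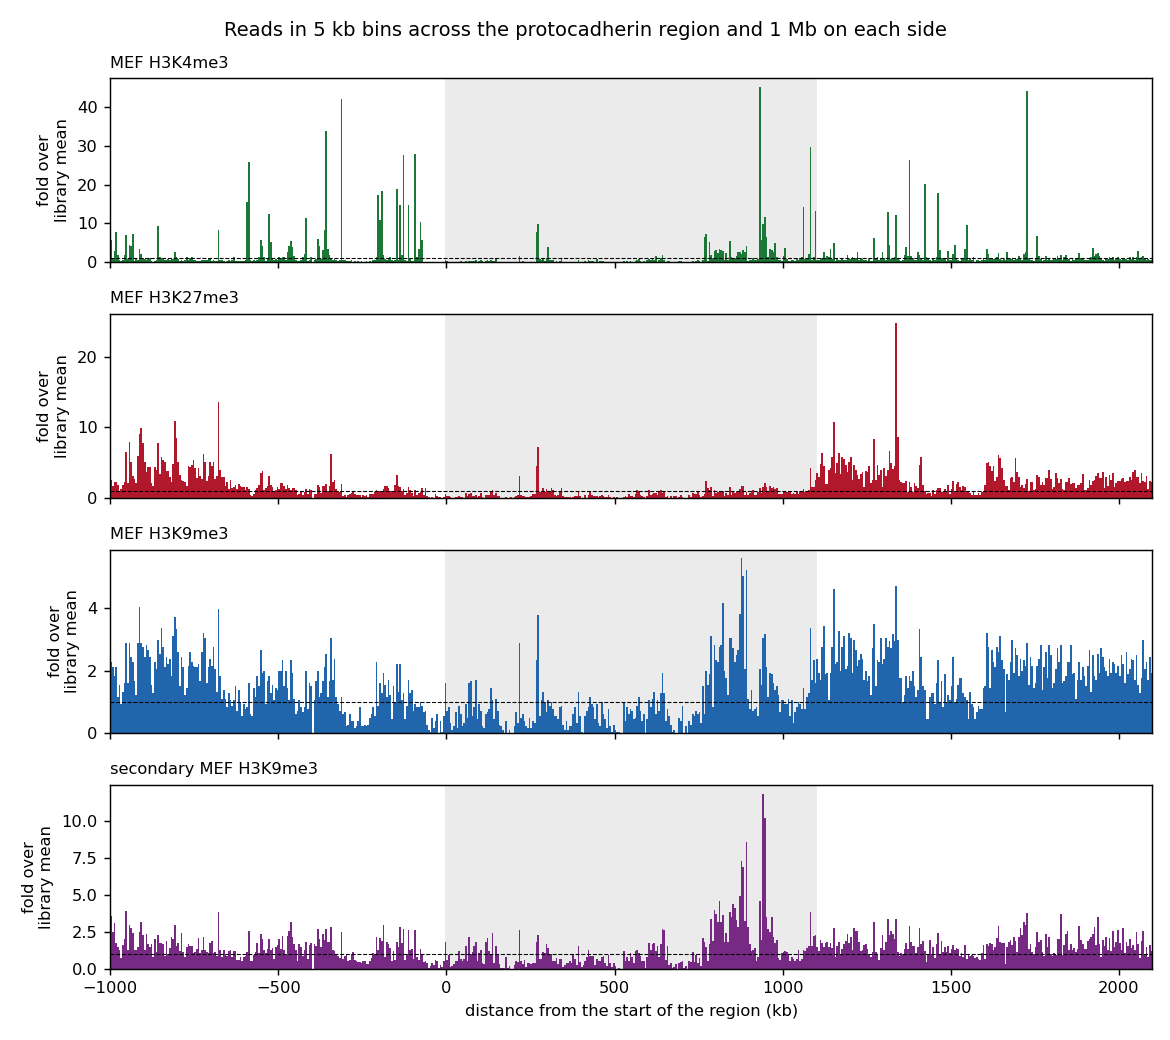
Fold over the library mean (y axis, a linear scale of its own for each library) in 5 kb bins against distance from the start of the region in kb (x axis), with the region shaded and 1 Mb on each side. Most bins of the shaded region lie below the library mean in each of the 4 libraries, and the levels rise towards its right end. The highest H3K4me3 bin of the region is at 45.2-fold and the highest secondary MEF H3K9me3 bin at 11.8-fold.

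The region was divided into 11 windows of 100 kb, numbered from the left. The left part, which holds the start of the Pcdha cluster, lay mostly below the mean of every library, apart from a few sharp sites. In windows 1, 2, 5 and 6 the mean level was 0.196- to 0.210-fold for H3K4me3 and 0.223- to 0.283-fold for H3K27me3. MEF H3K9me3 stood at 0.453- to 0.716-fold there and secondary MEF H3K9me3 at 0.579- to 0.877-fold. Among 23313 autosomal windows of 100 kb, these windows exceeded 25.9% to 27.5% in H3K4me3 and 11.5% to 17.8% in H3K27me3. They exceeded 22.2% to 38.4% in MEF H3K9me3 and 28.7% to 47.6% in secondary MEF H3K9me3. Windows 4 to 6 held no H3K9me3 call in either library at 5 kb or 1 kb. Coverage was also thin in this part: 139 of the 1100 bins of 1 kb had no read in any library (12.6%, against 2.60% on the left side and 0.300% on the right), all of them in windows 1 to 8 and 36 in window 2 alone. A 1 kb bin without a read allows a level of up to 0.606-fold (H3K4me3), 0.759-fold (H3K27me3), 0.833-fold (MEF H3K9me3) or 0.930-fold (secondary MEF H3K9me3), from the limit of 3 reads. Reads with more than 2 locations were left out by the alignment, and their part in these low levels was not tested.

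**Figure D2:**
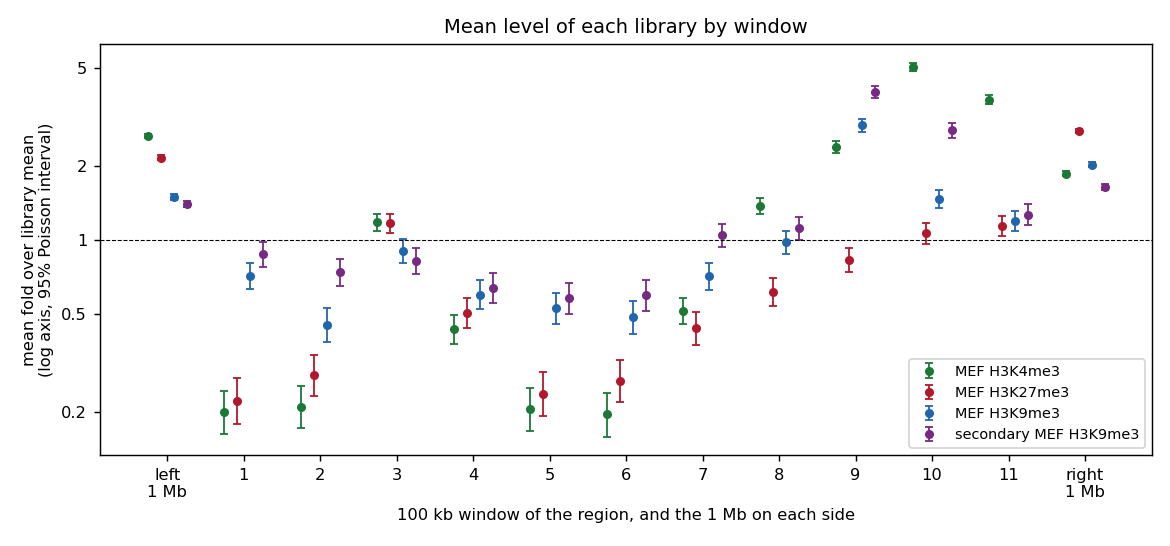
Mean fold over the library mean (y axis, log scale, bars are 95% Poisson intervals) of the 4 libraries in the 11 windows of 100 kb and in the 1 Mb on each side (x axis). H3K27me3 stays at or below 1.17-fold in all 11 windows, while H3K4me3 reaches 5.06-fold in window 10 and secondary MEF H3K9me3 4.0-fold in window 9.

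The strongest H3K27me3 site of the region lay in window 3. The adjacent bins chr18:37265001-37270000 and chr18:37270001-37275000 were called for both H3K4me3 (7.72-fold and 9.82-fold) and H3K27me3 (4.45-fold and 7.18-fold). MEF H3K9me3 was at 2.33-fold and 3.78-fold in the same bins, and secondary MEF H3K9me3 at 1.80-fold and 2.29-fold. At 1 kb the site narrowed to chr18:37269001-37272000. There the bin chr18:37270001-37271000 held 220 H3K4me3 reads (44.5-fold) and 80 H3K27me3 reads (20.2-fold), beside 30 MEF H3K9me3 reads (8.33-fold) and 17 secondary MEF H3K9me3 reads (5.27-fold). In the next bin, chr18:37271001-37272000, H3K4me3 was at 1.82-fold while H3K27me3 was still at 10.9-fold and MEF H3K9me3 at 6.11-fold. The called H3K27me3 run thus ended 1 kb further to the right than the called H3K4me3 run.

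A separate bin of window 3, chr18:37215001-37220000, was called in 3 of the 4 libraries. H3K4me3 was at 1.62-fold (1.15 to 2.20) and not called, H3K27me3 at 3.14-fold (2.40 to 4.02), MEF H3K9me3 at 2.89-fold and secondary MEF H3K9me3 at 2.60-fold. At 1 kb its top bin, chr18:37216001-37217000, held 28, 28, 26 and 19 reads in the same order, and was called in all 4. The 1 kb bins on both sides of it were called for H3K27me3 (4.30-fold and 4.05-fold), with H3K4me3 at 1.21-fold and 1.01-fold. By contrast, the bin chr18:37300001-37305000 in window 4 was raised for H3K4me3 (3.84-fold, 95 reads) with H3K27me3 at 0.911-fold, MEF H3K9me3 at 1.05-fold and secondary MEF H3K9me3 at 1.43-fold. Most of those H3K4me3 reads fell in 1 bin of 1 kb, chr18:37304001-37305000 (80 reads, 16.2-fold).

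Windows 7 and 8 led from the low part of the region to the high part. In window 7 no 5 kb bin was called for H3K4me3, yet 4 single bins of 1 kb were, at 3.44- to 7.27-fold. The highest 5 kb bin of the window, chr18:37640001-37645000, held H3K9me3 at 1.94-fold in MEF, below the call, and at 2.66-fold in secondary MEF, where it was called. In window 8 a sharp H3K4me3 peak stood at chr18:37769001-37771000, where the 1 kb bin from 37770001 reached 35.4-fold (175 reads). The 5 kb bins on both sides of its centre were at 6.39-fold and 7.36-fold, and the right one, chr18:37770001-37775000, was also called for H3K27me3 at 2.43-fold. Further right, H3K9me3 was called in chr18:37785001-37790000. It was at 3.11-fold in the MEF library and 3.35-fold in the secondary one, while H3K4me3 stood at 1.78-fold there and H3K27me3 at 1.52-fold.

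Window 9 (chr18:37800001-37900000) carried H3K9me3 along most of its length and H3K4me3 in many of the same bins. H3K4me3 averaged 2.38-fold (2.25 to 2.52), MEF H3K9me3 2.93-fold (2.75 to 3.11) and secondary MEF H3K9me3 4.0-fold (3.78 to 4.22), while H3K27me3 averaged 0.830-fold (0.742 to 0.924). Of its 20 bins, 13 were called for H3K4me3, 16 for MEF H3K9me3, 18 for secondary MEF H3K9me3 and 0 for H3K27me3. H3K4me3 was called together with MEF H3K9me3 in 12 of the 20 and with secondary MEF H3K9me3 in 13. On reads with 1 location, the 4 bins of chr18:37845001-37865000 were called for H3K9me3 in both libraries and not for H3K4me3. That stretch also held many H3K4me3 reads with 2 locations, such as 62 in chr18:37857001-37858000, which the call leaves out. With such reads at a weight of 0.5, H3K4me3 calls in the region went from 34 to 37. Bins shared by H3K4me3 and MEF H3K9me3 went from 20 to 24. Among 23313 windows of 100 kb on the autosomes, 106 were at or above the mean level of window 9 in MEF H3K9me3 and 12 in secondary MEF H3K9me3. Both counts include window 9 itself. In H3K4me3 2960 windows were at or above it, and in H3K27me3 11013.

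The highest H3K9me3 bins of the window lay in its right part. The bin chr18:37875001-37880000 held 101 MEF H3K9me3 reads (5.61-fold) and 118 secondary MEF H3K9me3 reads (7.31-fold); H3K4me3 was at 2.22-fold and H3K27me3 at 1.67-fold. The bin chr18:37890001-37895000 held 94 reads (5.22-fold) and 138 reads (8.55-fold); H3K4me3 was at 4.12-fold there, and H3K27me3 at 0.759-fold. The H3K4me3 maximum of the window was elsewhere, at chr18:37840001-37845000 (5.54-fold), where MEF H3K9me3 was at 3.05-fold and secondary MEF H3K9me3 at 3.84-fold. Around the highest H3K9me3 bin, H3K9me3 was continuous at 5 kb: in MEF a run of called bins spanned 55 kb (chr18:37840001-37895000), and in secondary MEF 60 kb (chr18:37840001-37900000), the longest runs of these libraries in the region. On the sides the longest such runs were 50 kb (left) and 65 kb (right) in MEF, and 20 kb and 30 kb in secondary MEF. Just past the window the level fell, and the bin chr18:37900001-37905000 was at 0.777-fold in the MEF library and at 1.67-fold in the secondary one.

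At 1 kb, window 9 resolved into a row of narrow H3K4me3 peaks. There were 14 runs of called bins, 1 or 2 kb long, in 100 kb. The median distance between neighbouring summits was 5 kb (range 3 to 23). The widest gap, between the summits from 37840001 and 37863001, crosses bins with many 2-location reads, which these calls leave out. Summit levels ran from 3.44-fold to 14.3-fold with a median of 8.79-fold. That median was close to the 8.49-fold of all 39 H3K4me3 runs of the region; it was 6.67-fold over the 7 runs of window 10, 12.8-fold over the 4 of window 8 and 37.2-fold over the 5 of window 11. MEF H3K9me3 formed 13 runs in the window (median gap 5.5 kb) and secondary MEF H3K9me3 20 runs (median gap 4 kb). Of the 14 H3K4me3 runs, 13 contained a bin called for H3K9me3 in at least 1 of the libraries. Over the region it was 24 of 39 runs, these 14 included. In window 8 it was 3 of 4 and in window 10 it was 3 of 7. No such share was taken over the runs of the sides or the genome, so 13 of 14 has no background here. The many bins of window 9 called for H3K9me3, given next, also make such overlap likelier there. In window 9 as a whole 20 bins of 1 kb were called for H3K4me3 (20%, against 3.29% of all 1 kb bins). MEF H3K9me3 was called in 23 (23.0%, against 1.65%), secondary MEF H3K9me3 in 40 (40%, against 1.70%) and H3K27me3 in 1 (1.0%, against 4.32%). As many H3K4me3 runs were found in 26 of the 23313 autosomal windows, window 9 included. As many H3K9me3 runs in both libraries, 12 or more, were found in 4, and window 9 was the only one with as many of both. Both cut-offs are the counts of window 9 itself, so its standing alone at them is no separate support.

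The share of each mark changed from peak to peak. The 1 kb bin chr18:37879001-37880000 was the highest MEF H3K9me3 bin of the region (40 reads, 11.1-fold). It reached 14.3-fold in secondary MEF (46 reads), but H3K4me3 was only at 3.44-fold. The bin chr18:37892001-37893000 was high in both, with H3K4me3 at 11.3-fold, MEF H3K9me3 at 9.99-fold and secondary MEF H3K9me3 at 14.6-fold. H3K27me3 stood at 3.04-fold and 1.52-fold in these bins. The bin chr18:37875001-37876000 carried H3K9me3 (9.16-fold and 9.91-fold) with H3K4me3 at 1.62-fold, below the call. The bin chr18:37821001-37822000 had more H3K9me3 in the MEF library (8.88-fold, 32 reads) than in the secondary one (3.72-fold, 12 reads), as did 5 of the 23 bins called for MEF H3K9me3 in the window, this one included.

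**Figure D3:**
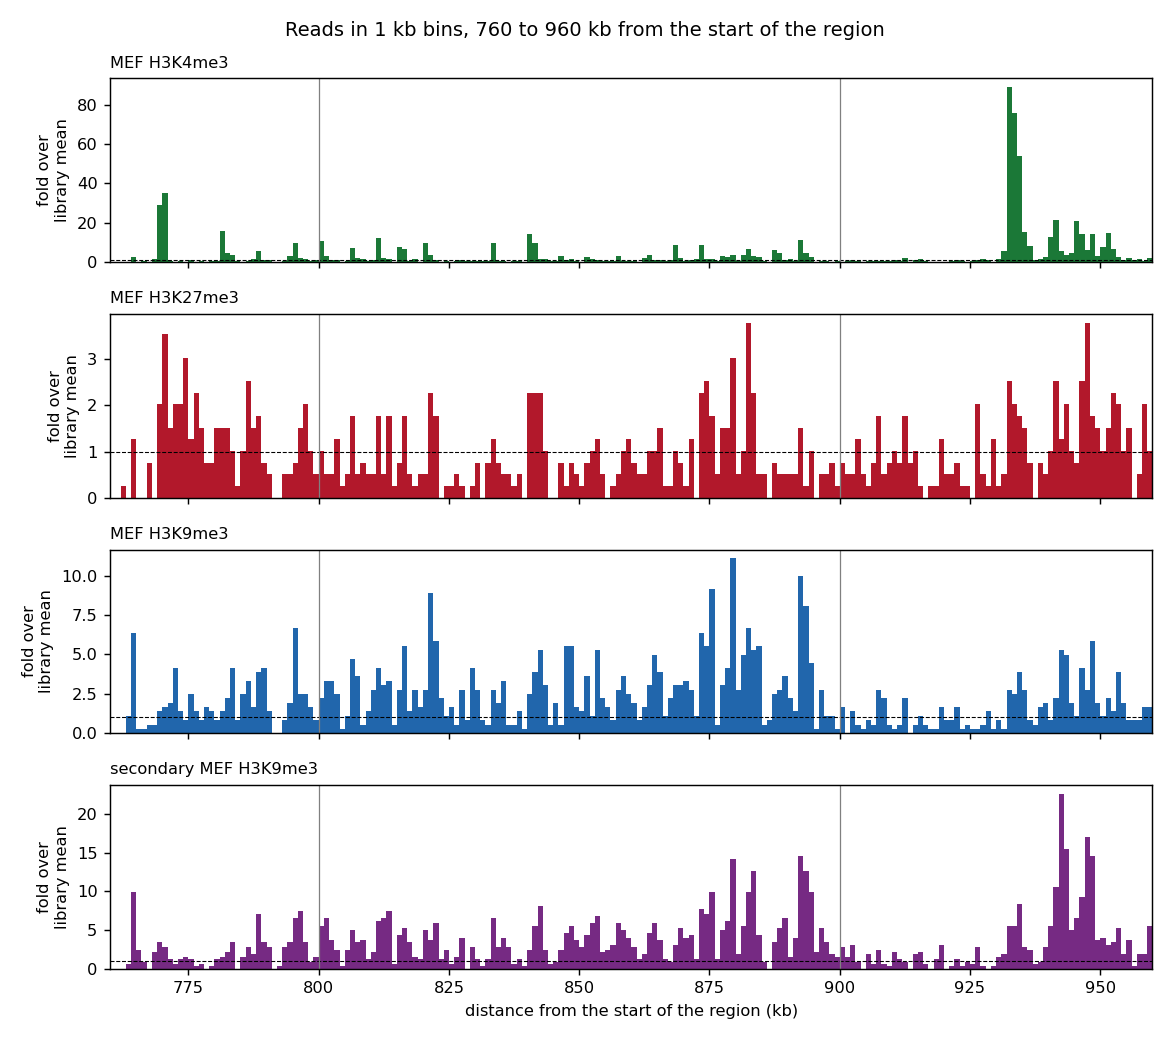
Fold over the library mean (y axis, a linear scale of its own for each library) in 1 kb bins, 760 to 960 kb from the start of the region (x axis); vertical lines mark the bounds of window 9. Narrow H3K4me3 peaks recur between 800 and 900 kb with both H3K9me3 libraries raised between and under them, and secondary MEF H3K9me3 is highest (22.6-fold) in window 10, to the right of the second line.

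Around the 14 H3K4me3 summits of window 9 the signal was one-sided. In bins of 250 bp, the mean MEF H3K9me3 level was 7.14-fold at the summit and secondary MEF H3K9me3 10.2-fold. From 500 to 2000 bp to the right of the summits there were 402 MEF H3K9me3 reads against 152 on the left, a ratio of 2.64 (2.19 to 3.21). For secondary MEF H3K9me3 the ratio was 2.98 (2.49 to 3.57), and in both libraries the right side was higher at 13 of 14 summits. The other marks leaned the same way, with ratios of 2.43 (1.96 to 3.03) for H3K4me3 and 2.37 (1.70 to 3.36) for H3K27me3. Since all 4 libraries were lower on the left, the part of coverage in this shape was not tested. The lean was not limited to window 9. Elsewhere it was less even across summits for secondary MEF H3K9me3, and in window 10 for MEF H3K9me3 too. At the 18 H3K4me3 summits of the rest of the region the ratio was 1.99 for MEF H3K9me3 (right side higher at 15 of 18). It was 1.76 for secondary MEF H3K9me3 (11 of 18) and 1.48 for H3K27me3 (11 of 18). For H3K4me3 the pooled ratio was 0.531, although the right side was higher at 12 of 18 summits. At the 7 summits of window 10 the ratio was 2.60 for H3K4me3 and 1.87 for secondary MEF H3K9me3. For H3K27me3 it was 1.55 and for MEF H3K9me3 1.36 (0.980 to 1.89). The right side was higher at 4, 4, 6 and 3 of these 7 summits in the same order. At 83 H3K4me3 summits of the 1 Mb sides the ratio was 0.939 to 1.05 in the 4 libraries. H3K9me3 at those summits peaked at 4.29-fold in the MEF library and 5.48-fold in the secondary one, under a much higher H3K4me3 level (47.2-fold against 20.6-fold in window 9).

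**Figure D4:**
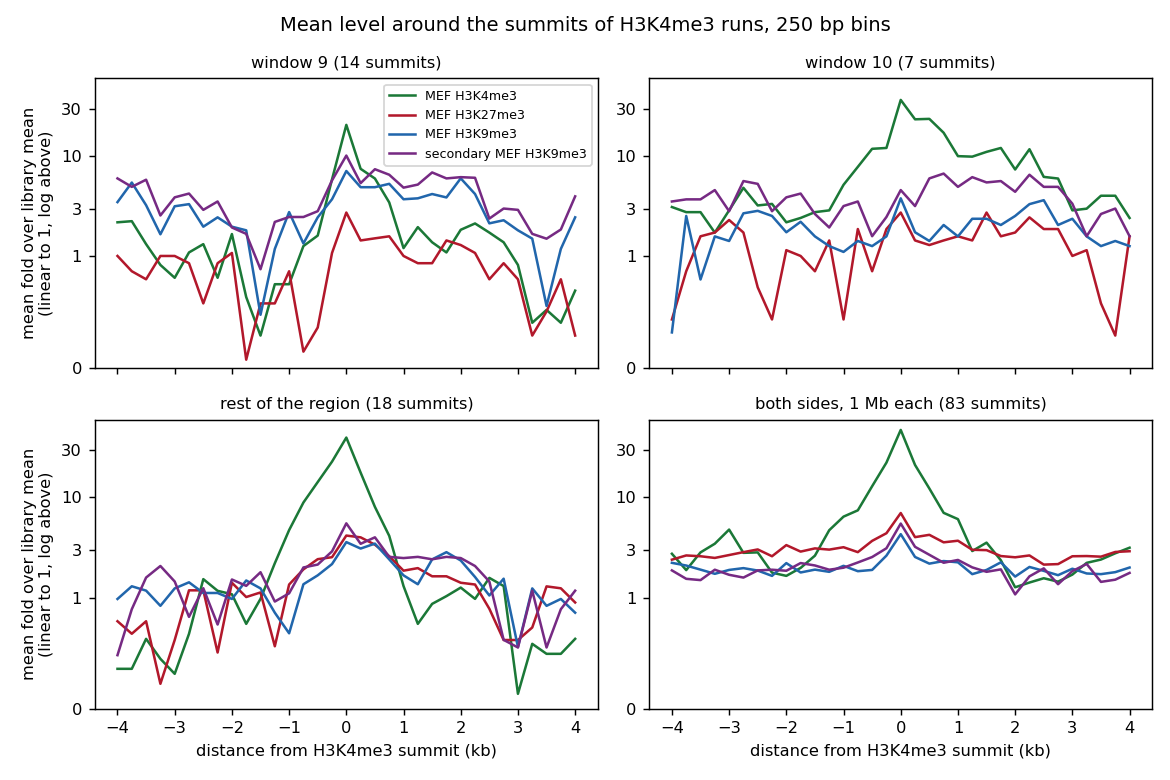
Mean fold over the library mean (y axis, linear to 1 and logarithmic above) of the 4 libraries against distance from the H3K4me3 summit in kb (x axis, 250 bp bins), for window 9, window 10, the rest of the region and both 1 Mb sides. In window 9 H3K9me3 of both libraries stays high to the right of the summit, with right-to-left ratios of 2.64 (MEF) and 2.98 (secondary MEF). The ratios are 1.36 and 1.87 in window 10, 1.99 and 1.76 in the rest of the region, and 1.05 and 0.95 on the sides.

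Window 10 (chr18:37900001-38000000) held the highest H3K4me3 level of the region and the largest difference between the H3K9me3 libraries. H3K4me3 averaged 5.06-fold (4.86 to 5.26), H3K27me3 1.06-fold (0.966 to 1.17), MEF H3K9me3 1.47-fold (1.35 to 1.60) and secondary MEF H3K9me3 2.79-fold (2.61 to 2.98). The bin chr18:37930001-37935000 alone held 1118 H3K4me3 reads (45.2-fold), with H3K27me3 at 1.42-fold. Its 1 kb maximum, chr18:37932001-37933000, reached 88.9-fold, and the run of called 1 kb bins around it was 6 kb long. A second H3K4me3 run followed at chr18:37940001-37949000, 9 kb long and lower, with a summit of 21.6-fold.

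Secondary MEF H3K9me3 peaked over that second run, not over the H3K4me3 maximum. In the bin chr18:37940001-37945000 it held 191 reads (11.8-fold) against 55 MEF H3K9me3 reads (3.05-fold), and in chr18:37945001-37950000 165 reads (10.2-fold) against 57 (3.16-fold). These were the 2 highest bins of the library in the region. Its called run of 1 kb bins had the same bounds as the H3K4me3 run, chr18:37940001-37949000. The 1 kb bin chr18:37942001-37943000 held 73 secondary MEF H3K9me3 reads (22.6-fold) and 19 MEF H3K9me3 reads (5.27-fold). H3K4me3 was at 5.86-fold and H3K27me3 at 1.26-fold in that bin. At 5 kb, chr18:37945001-37950000 was called in all 4 libraries, with H3K27me3 just past the threshold at 2.07-fold.

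Window 11, at the right end of the region, held isolated H3K4me3 peaks, with H3K9me3 a little above the library means (1.20-fold in MEF, 1.27-fold in secondary MEF). The bin chr18:38060001-38065000 was at 14.2-fold for H3K4me3, with the other libraries at 1.24- to 1.44-fold. The bin chr18:38080001-38085000 was at 29.7-fold and was called in all 4 libraries (H3K27me3 4.2-fold, MEF H3K9me3 3.39-fold, secondary MEF H3K9me3 3.84-fold). The last bin of the region, chr18:38095001-38100000, was at 13.1-fold for H3K4me3 and 2.48-fold for H3K27me3. H3K27me3 at its right edge rose towards the right 1 Mb: the last 1 kb bin, chr18:38099001-38100000, was called for H3K27me3 alone (4.81-fold), with H3K4me3 at 0.404-fold.

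Most bins called for MEF H3K9me3 were called in secondary MEF as well. Of the 27 bins called for MEF H3K9me3, 26 were also called in secondary MEF H3K9me3 (96.3%, which is 66.7% of the 39 bins of that library). These 26 are 11.8% of the region, against 5.12% of all bins. Over all bins the shares were 49.7% and 54.9%. H3K27me3, with 7 calls in all, was called in 5 of the 27 (2.27% of the region, against 6.65% of all bins), a share of 18.5% against 64.6% of MEF H3K9me3 bins over the genome, 89.5% on the left side and 87.6% on the right. The H3K27me3 list shared 5 bins with secondary MEF H3K9me3 too (2.27%, against 4.04%). Taken from the other list, 71.4% of the 7 H3K27me3 bins were called in each H3K9me3 library, against 58.7% (MEF) and 35.7% (secondary MEF) over the genome. H3K4me3 was called in 20 of the 27 (74.1%, against 24.2% over the genome; 9.09% of the region, against 2.49%), and in 24 of the 39 secondary MEF bins (10.9% of the region, against 3.47%). H3K4me3 and H3K27me3 were called together in 6 bins (2.73% of the region, against 2.33% of all bins), which is 17.6% of the H3K4me3 list and 85.7% of the H3K27me3 list; with bins moved by 2.5 kb the count was 3. They are the pair of bins from 37265001, the bins from 37770001, 37945001 and 38080001, and the last bin of the region, all described above.

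As a ratio of read shares, MEF H3K9me3 to MEF H3K27me3 was 1.62 over the region (95% Clopper-Pearson interval 1.54 to 1.70), but 0.692 (0.669 to 0.716) on the left side and 0.728 (0.706 to 0.75) on the right. It was highest in window 9 (3.53, 3.11 to 4.0) and in window 1 (3.22, 2.52 to 4.15), where both levels were below the library mean. Window 3 was the only one of the 11 with a ratio below 1 (0.775, 0.670 to 0.894). Across the 220 bins the levels of every pair of libraries moved together, with Pearson's r of 0.767 to 0.913 on log2(CPM + 0.1), with CPM the reads scaled to equal library totals. Bins share their sequence and so their coverage, and without the bins under 20 reads in all libraries together (168 bins left) r was 0.528 to 0.848. Without an input library, raised levels common to all libraries could not be set aside directly. As an alternative, a bin also had to reach 2-fold over the mean of the other MEF marks in that bin, with its Poisson value taken against that mean. By this rule 8 MEF H3K9me3 bins and 18 secondary MEF H3K9me3 bins were called. All 8 and 12 of the 18 lay in window 9, and in the 1 Mb sides together there were 2 each. The rule asks more of H3K9me3 where H3K4me3 and H3K27me3 are high. H3K27me3 averaged 2.17-fold and 2.78-fold on the sides, against 0.830-fold in window 9. The H3K9me3 counts of window 9 and the sides thus partly restate these H3K27me3 levels. They do not take the place of an input library. For H3K4me3 the count in the region went from 34 to 18, with 29 on the left side and 10 on the right. For H3K27me3 it went from 7 to 0, with 48 and 59 on the sides.

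Secondary MEF H3K9me3 was higher than MEF H3K9me3 over the region and lower on both sides. The ratio of read shares was 1.32 (1.26 to 1.38) in the region, 0.936 (0.900 to 0.974) on the left and 0.809 (0.781 to 0.839) on the right. It was above 1 in 10 of the 11 windows, and its interval lay above 1 in windows 1, 2, 7, 9 and 10. Window 10 had the largest ratio, 1.90 (1.70 to 2.12), and window 9 stood at 1.37 (1.26 to 1.48). Window 3 was the exception at 0.911 (0.772 to 1.07). These ratios compare 2 libraries on different flow cells and not 2 conditions.

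**Figure D5:**
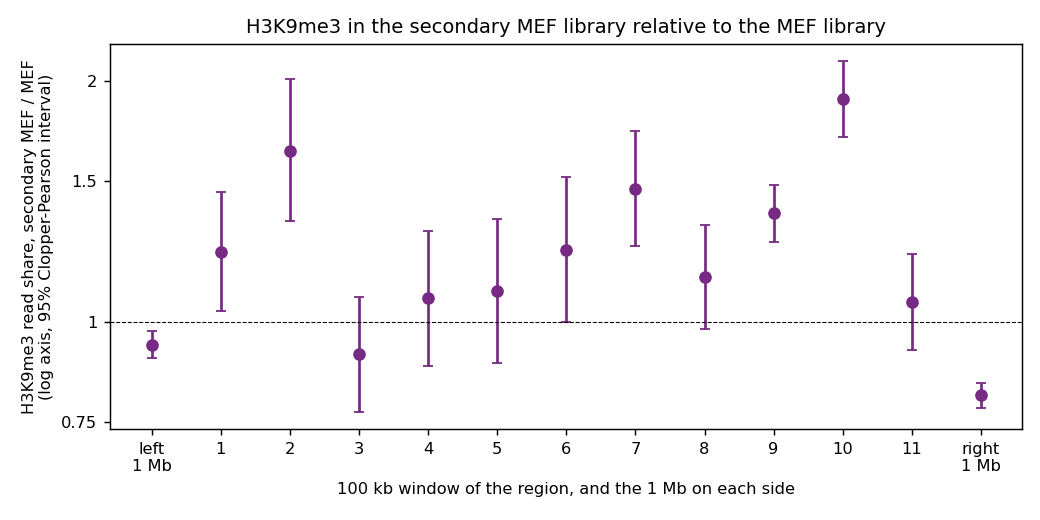
Ratio of H3K9me3 read shares, secondary MEF over MEF (y axis, log scale, bars are 95% Clopper-Pearson intervals), in the 11 windows of 100 kb and the 1 Mb on each side (x axis). Window 10 is highest at 1.90, and both sides lie below 1.

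Bin by bin, 141 of the 220 bins held the 20 reads needed, and the ratio was above 1 in 98 of them. A bin was taken as higher or lower where the ratio reached 2-fold and its interval at 0.1% error excluded 1. By that rule 5 bins were higher in secondary MEF (3.55%, against 0.756% of 321550 bins compared over the genome) and 0 were lower (against 0.576%). The largest was chr18:37940001-37945000 at 3.88 (2.36 to 6.65), followed by its neighbour chr18:37945001-37950000 at 3.23 (1.96 to 5.54). The bin chr18:37120001-37125000 in window 2 was at 3.16 (1.07 to 11.5) on 34 reads against 12, and with reads left at their 5′ end it was no longer taken as higher (2.83, leaving 4 bins). The bin chr18:37930001-37935000, the H3K4me3 maximum, was at 2.23 (1.15 to 4.55). The fifth, chr18:37895001-37900000 at the right end of window 9, was at 2.57 (1.07 to 6.86) and is named here after its value was seen. The bins chr18:37115001-37120000 and chr18:37765001-37770000 were both at 2.94 (0.932 to 11.6). Their intervals included 1, so they were not taken as higher. The lowest ratio, 0.319 (0.0626 to 1.14), was that of chr18:37775001-37780000, and its interval included 1.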

How the data were processed

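ChIP-seq reads of 4 libraries, 1 per group, were used. The deposited files hold no level, count table, fraction or score but other values: a genome position for every aligned read, negative where it lies on the minus strand, without normalization. Per the file headers, the authors aligned to mouse build mm8 with Bowtie (seed -l 36 with -n 2 mismatches, -e 70, at most -m 2 locations with -k 2 reported, --best, --concise); the version is not given in the sources used here. The files keep uniquely placed reads separate from those placed at 2 locations, and reads with more locations were left out. Per the labels' protocols, chromatin was sonicated to 500 bp on average, amplified over 18 PCR cycles and cut from a gel between 150 and 350 bp.

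From these positions, reads with 1 location and outside the mitochondrial genome (12244567, 9782554, 8912337 and 7985901 in MEF H3K4me3, MEF H3K27me3, MEF H3K9me3 and secondary MEF H3K9me3) were moved 75 bp to the 3′ side and counted in bins of 5 kb and 1 kb with Python 3.11.15, numpy 2.4.6 and pandas 2.3.3. Minus-strand positions were taken as the leftmost base of a 36-base read, which the files do not settle. Of the reads in the region, 92.3% to 97.9% had a position and strand of their own. PCR reads without molecular identifiers are not independent molecules. Calls used one-sided Poisson values (scipy 1.17.1) with Benjamini-Hochberg adjustment over all bins holding a read in any library. Ratios of read shares carry Clopper-Pearson intervals (95% for areas, 0.1% error for single bins). The calls within a library and the ratio calls were tested on simulated counts per bin, and the placing of reads in bins was not. Those counts were Poisson around a flat mean apart from the altered bins, as the call assumes. Coverage that varies by bin was therefore not part of that test.

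Bins were named by rule: in each library the 5 highest bins of 5 kb and of 1 kb, the highest 5 kb bin of each 100 kb window, all bins called for both H3K4me3 and H3K27me3, the 5 largest ratios in each direction, and the 3 longest 1 kb runs. Not every bin of these lists is described above. The region, the lists and the rules were chosen with earlier results of these data known. Gene names and their order come from RefSeq on GRCm38.p6, whose coordinates were not used. The study's control libraries were not used here. Alternatives covered duplicates, the shift, 2-location reads, thresholds, bin size and offset, depth, scaling and background.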

Additional observations from a re-analysis of the deposited data

Results flagged for a closer look

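Reads with 2 locations were not used in the comparisons, and the region held many of them, each listed at both of its locations. There were 711 such entries in MEF H3K4me3, 334 in MEF H3K27me3, 811 in MEF H3K9me3 and 838 in secondary MEF H3K9me3, which is 2.82, 1.39, 2.98 and 3.34 times the mean of all bins for these reads. Window 9 alone held 495 entries in MEF H3K4me3, 112 in MEF H3K27me3, 417 in MEF H3K9me3 and 408 in secondary MEF H3K9me3, or 21.6, 5.11, 16.8 and 17.9 times the mean. The fullest 1 kb bin was chr18:37868001-37869000, with 85 entries in MEF H3K4me3 and 31 in MEF H3K9me3 beside 44 and 11 reads with 1 location. The bins chr18:37846001-37847000 and chr18:37857001-37858000 held the same number of entries in each library (62 in MEF H3K4me3, 8 in MEF H3K27me3, 34 in MEF H3K9me3 and 34 in secondary MEF H3K9me3). With 1 library per group, no library could be compared with others of its group.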

How the results depend on the processing

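Calls and counts of shared bins depended on the threshold, and mean levels on the reference. In bins of 1 kb 77 bins were called for H3K4me3, 12 for H3K27me3 and 78 for secondary MEF H3K9me3. At 3-fold and an adjusted value under 1e-06, the 5 kb bins called were 4 (H3K27me3), 12 (MEF H3K9me3) and 23 (secondary MEF H3K9me3). The pairs then shared 3 (H3K4me3 and H3K27me3), 7 (H3K4me3 and MEF H3K9me3), 2 (H3K27me3 and MEF H3K9me3) and 11 bins (both H3K9me3 libraries). Against the other MEF marks the counts were 18 (H3K4me3), 0 (H3K27me3), 8 (MEF H3K9me3) and 18 (secondary MEF H3K9me3). Both H3K9me3 libraries then shared 7 bins. The pairs of MEF marks shared 0, but this rule all but bars 2 MEF marks from being called in the same bin. Those 0 counts therefore say nothing about sharing. With bins moved by 2.5 kb, H3K4me3 and H3K27me3 shared 3. Over the mean of the 1 Mb sides the region stood at 0.624-fold for H3K4me3 and 0.865-fold for secondary MEF H3K9me3, both now below 1, at 0.249-fold for H3K27me3 and at 0.566-fold for MEF H3K9me3. Over the mean of chromosome 18, H3K4me3 was at 1.55-fold and H3K27me3 at 0.666-fold. With 2-location reads at a weight of 0.5 the 4 means were 1.46, 0.645, 1.08 and 1.4. The ratio of secondary MEF to MEF H3K9me3 was 1.24 without bins called for H3K4me3 or H3K27me3, and 1.53 when scaled by the sides. The causes were not tested, beyond the fewer bins that stricter rules call. Among the named bins, under duplicates, shift and 2-location reads, 2 changed their call: chr18:37120001-37125000 lost it with reads left at their 5′ end (ratio 2.83), and chr18:37640001-37645000 gained one for MEF H3K9me3 with 2-location reads (2.01-fold). The stored position of minus-strand reads taken as the 5′ end and the alternatives for windows 9 and 10 were chosen after seeing the data. No paired analysis was possible because each group has 1 library. Depth limits single bins: 3 reads stand for 0.121- to 0.186-fold in a 5 kb bin.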
